A study of Mus musculus with 56 samples.

Results

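The heat shock protein set held the 75 of 17027 listed kidney genes whose symbols name the cytosolic and mitochondrial Hsp70, Hsp110, Hsp90, Hsp60/10, small Hsp, DnaJ (Hsp40) and Bag families, together with Hsf1, Hsf2, Stip1, Ahsa1, Chordc1 and Fkbp4. Chaperones of the endoplasmic reticulum (ER) were left out by the same rule. The study profiled kidney RNA of 56 C57BL/6J females, 4 in each of 14 groups. All mice were kept in a 12 h light and 12 h dark cycle, had free access to food for 7 days from 7 weeks of age, then spent 7 days on restricted feeding and were killed at 9 weeks. They had food only in the day (daytime-restricted feeding, DRF, 28 mice) or only in the night (nighttime-restricted feeding, NRF, 28 mice, the control). Sampling was every 4 h over a day, at zeitgeber times (ZT, counted in hours from the start of light) 0, 4, 8, 12, 16, 20 and 24, so ZT4 and ZT8 lay in the light and ZT16 and ZT20 in the dark. The comparisons asked how inverted feeding changed the daily course of these transcripts.

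Heat shock proteins bind unfolded or partly folded proteins and help them fold, move through membranes or be broken down. Hsp70 proteins work with DnaJ proteins, which bring them clients and start their ATPase cycle, and with nucleotide exchange factors of the Hsp110 and Bag families. Hsp90 takes clients from Hsp70 through Stip1 and is tuned by co-chaperones such as Ahsa1, Chordc1 and Fkbp4, small Hsps hold unfolded proteins without ATP, and Hspd1 with its lid Hspe1 folds proteins inside mitochondria. Many of these genes are switched on by heat shock factor 1 (Hsf1), which binds heat shock elements, runs of GAA and TTC units in alternating order.

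Values are TPM (transcripts per M transcripts) on a linear scale, rebuilt from the deposited values. Of the 75 genes, 72 had a mean of at least 1 TPM and were tested with 12173 genes in all. Dnajb13 (0.193 TPM), Dnajb7 (0.797 TPM) and Hspb9 (0.879 TPM) were too low. Changes are differences of log2(TPM + 1), which understate the change of low genes, with their standard error (SE), and a gene was called at an adjusted p under 0.05. Every adjusted p is from limma with Benjamini-Hochberg adjustment over all 12173 genes. Recovered reads in genes with whole read numbers totalled 21.3 to 23.9 M a library. The list held 9 Hsp70 and 3 Hsp110 genes, 2 Hsp90 and 4 Hsp90 co-chaperone genes, 2 Hsp60/10 and 7 small Hsp genes. It also held 38 DnaJ, 6 Bag and 2 Hsf genes, and 2 that share a name prefix only (Hspbp1 and Hspbap1). The small Hsp genes were grouped by symbol alone.

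Kidney markers were high in every library, with summed levels of 4225 to 8695 TPM for 6 proximal tubule genes and 4087 to 10556 TPM for 3 thick ascending limb genes. Adipose markers (Adipoq, Plin1, Cfd and Lep) summed to 0 to 2937 TPM, blood markers to 620 to 8005 TPM and collecting duct markers to 546 to 2128 TPM. The adrenal markers Cyp11b1, Cyp11b2 and Th were not listed, and Star and Hsd3b1 summed to 4.23 to 7.70 TPM. Skeletal muscle markers summed to 1.33 to 5.44 TPM and immune markers to 13.8 to 31.7 TPM. Libraries set apart in collecting duct or adipose markers are given beside some of the results they touch. In bulk kidney RNA, fewer cells of a type and less RNA per cell cannot be told apart.

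The promoters of some members carry heat shock elements and are shown for some of the members whose levels changed in the comparisons below. RefSeq start sites on GRCm38.p6 were given for 61 of the 75 members, which did not include Hspa8, Hsp90aa1, Hsp90ab1 and Hsf1. The element searched on both strands was GAANNTTCNNGAA or TTCNNGAANNTTC, and a looser form allowed 1 mismatch among its 9 fixed letters. In the 250 bases before the start, the exact form stood in 3 of 61 members (4.92%) and in 0.514% of all genes with an entry. The looser form stood in 14 members (23.0%) and in 6.86% of all genes. Capitals mark the matched bases, with overlapping matches run together, and each sequence is written 5′ to 3′ on the gene's strand.
Hspa1a (chr17:34972228-34972295, minus strand): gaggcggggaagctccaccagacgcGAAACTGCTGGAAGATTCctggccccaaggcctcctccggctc
Hspa1b (chr17:34959310-34959377, minus strand): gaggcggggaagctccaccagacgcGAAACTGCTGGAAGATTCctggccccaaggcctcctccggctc
Hspe1 (chr1:55088053-55088082, plus strand): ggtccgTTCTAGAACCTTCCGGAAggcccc
Hspd1 (chr1:55088053-55088082, minus strand): ggggccTTCCGGAAGGTTCTAGAAcggacc
Hsph1 (chr5:149636346-149636375, minus strand): gaatctTTCTCGAAGGCTCGAGAAgaagga
Hspb1 (chr5:135887777-135887839, plus strand): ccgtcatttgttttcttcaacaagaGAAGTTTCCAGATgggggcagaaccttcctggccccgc
Dnaja1 (chr4:40722314-40722376, plus strand): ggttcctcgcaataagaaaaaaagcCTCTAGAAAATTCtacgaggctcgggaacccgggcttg
Dnaja4 (chr9:54699434-54699501, plus strand): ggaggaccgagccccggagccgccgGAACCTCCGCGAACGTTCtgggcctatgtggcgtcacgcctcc
Fkbp4 (chr6:128438775-128438837, minus strand): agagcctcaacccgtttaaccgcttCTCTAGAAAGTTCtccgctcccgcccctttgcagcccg
Hspb6 (chr7:30553151-30553213, plus strand): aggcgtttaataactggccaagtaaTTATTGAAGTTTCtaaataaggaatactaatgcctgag
Hspa1a and Hspa1b held the same 68 bases, and the exact elements of Hspd1 and Hspe1 are 1 stretch between these divergent genes, read on opposite strands. The element of Hspb6 is shown beside the others because this gene moved the other way. Elements of Dnajb4, Dnajb6, Dnajc8 and Dnajc27 are not shown, and that of Dnajb6 was exact. From NRF ZT12 to ZT16, Dnajb4 rose by 0.63 (adjusted p = 0.0011) and Dnajc8 fell by 0.21 (adjusted p = 0.024) by limma. Dnajb6 and Dnajc27 were not called in that step (adjusted p = 0.30 and 0.27).

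Under NRF the most common time of the highest level was ZT16, early in the dark phase, and under DRF it was ZT4, with a further high at ZT16 in many members. Under NRF 33 of 72 members (45.8%) were highest at ZT16, against 18.2% of all genes tested. Under DRF 30 members (41.7%) were highest at ZT4, against 16.2% of all genes. A local high at both ZT4 and ZT16 was seen under DRF in 22 members (30.6%, against 8.45% of all genes) and under NRF in 2 members (2.78%, against 4.64%). These highs were read from group means and not tested. In the tested DRF steps below, 7 members rose both into ZT4 and into ZT16, against 77 of all 12173 genes. The summed level of the 65 members with whole reads was 8810 ± 521 TPM (SD, n = 4) at NRF ZT12 and 15845 ± 871 at NRF ZT16, and under DRF it was 9052 ± 225 at ZT0, 13981 ± 727 at ZT4, 10667 ± 1000.1 at ZT12 and 13221 ± 529 at ZT16. Without Hspa8, the largest part of that sum, the remaining 64 members summed to 6816 ± 581 TPM at NRF ZT12, 10484 ± 614 at NRF ZT16, 6965 ± 165 at DRF ZT0, 9279 ± 659 at DRF ZT4 and 9022 ± 538 at DRF ZT16.

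**Figure D1:**
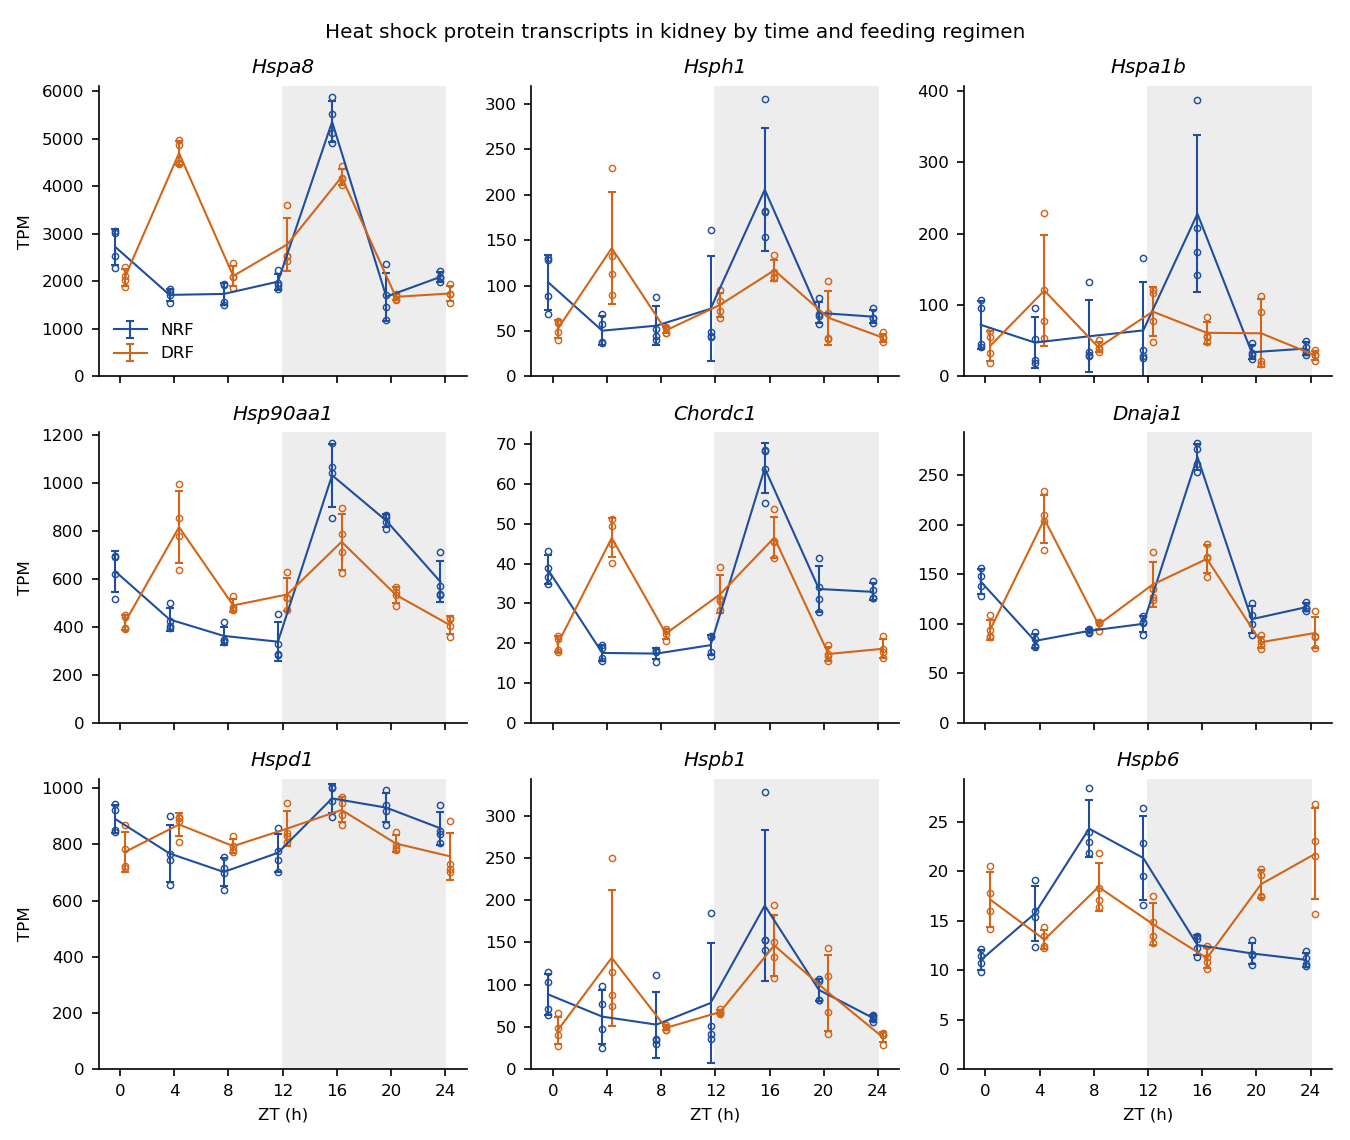
Levels in TPM against zeitgeber time in hours for 9 chaperone genes under NRF (blue) and DRF (orange), with a point for each library, a line through the group means and bars of 1 SD (n = 4); the shaded span is the dark phase. Hspa8 stood at 4907 to 5879 TPM at NRF ZT16, and under DRF at 4466 to 4973 TPM at ZT4 and 4033 to 4425 TPM at ZT16.

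Hspa8, the constitutive cytosolic Hsp70, was the most abundant member, with a mean of 2615 TPM over all libraries. At NRF ZT12 its libraries had 1838, 1973, 1929 and 2237 TPM, and at NRF ZT16 they had 4907, 5125, 5532 and 5879 TPM. Under DRF it had 1884, 2121, 2306 and 2037 TPM at ZT0, 4869, 4973, 4466 and 4498 TPM at ZT4, 2432, 2537, 2541 and 3611 TPM at ZT12 and 4179, 4033, 4425 and 4156 TPM at ZT16. All libraries of NRF ZT16 lay above all those of NRF ZT12, and all of DRF ZT4 lay above all of DRF ZT0. The step from ZT12 to ZT16 under NRF was 1.43 ± 0.12 (adjusted p = 1.1e-12) and the step from the mean of ZT0 and ZT24 (ZT0/24) to ZT4 under DRF was 1.30 ± 0.11 (adjusted p = 2.2e-13). At NRF ZT4 the libraries had 1555, 1833, 1770 and 1704 TPM, so at this clock time DRF was higher by 1.46 ± 0.12 (adjusted p = 2.2e-12). At ZT16 both regimens were high, and the difference DRF minus NRF was -0.35 ± 0.12 (adjusted p = 0.064).

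Among the other Hsp70 genes, the strongly inducible Hspa1a and Hspa1b moved most and varied most. These neighbours on chromosome 17 are nearly identical in their coding sequence, and their reads came out fractional, as did those of Hspa1l, but the sum of the 3 genes was whole in all 56 libraries within 0.0102 reads. The split between them is therefore an estimate and the sum is firm. Scaled to library size (reads per M reads), the sum was 157, 37.0, 41.7 and 49.7 at NRF ZT12 and 252, 383, 160 and 201 at NRF ZT16. Under DRF it was 74.1, 30.5, 45.7 and 66.5 at ZT0 and 157, 103, 72.8 and 226 at ZT4. The NRF ZT16 libraries lay above all those of NRF ZT12, with 157 as the highest at ZT12 and 160 as the lowest at ZT16, and the DRF ZT4 libraries overlapped those of DRF ZT0 by 1 library. As estimated, Hspa1b rose by 2.16 ± 0.54 (adjusted p = 0.0015) and Hspa1a by 1.78 ± 0.35 (adjusted p = 0.0001) from NRF ZT12 to ZT16. From DRF ZT0/24 to ZT4, Hspa1b rose by 1.61 ± 0.46 (adjusted p = 0.0057) and Hspa1a by 1.25 ± 0.31 (adjusted p = 0.0013). With the replicates of 1 number left out of every group, the NRF step of Hspa1b was 1.59 without replicate 2 (adjusted p = 0.059) and its DRF step 1.25 without replicate 4 (adjusted p = 0.062). Without the 4 libraries high in Hspb1, described below, both were called, at 2.47 (adjusted p = 0.00022) and 1.23 (adjusted p = 0.017).

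The mitochondrial Hsp70 Hspa9 was abundant and nearly flat. Its group means ran from 838 TPM at NRF ZT4 to 908 TPM at NRF ZT16 and from 842 TPM at DRF ZT0 to 932 TPM at DRF ZT16, a highest-to-lowest ratio of 1.08 under NRF and 1.11 under DRF. It was not called in any step or at any single time point, and its 24-h rhythm was called under DRF with an amplitude of 0.06 ± 0.02 (adjusted p = 0.014). Hspa2, an Hsp70 rich in testis, had 15.8, 24.3, 26.7 and 23.5 TPM at NRF ZT16 and 16.8, 12.0, 13.4 and 15.4 TPM at DRF ZT16. Hspa12a changed from ZT0/24 to ZT4 under DRF by 0.22 ± 0.07 (adjusted p = 0.012), and its NRF profile peaked near lights on, with 33.1 to 36.1 TPM at ZT0 and 21.8 to 25.03 TPM at ZT8. Hspa14, a ribosome-bound Hsp70, fell by 0.19 ± 0.06 on this scale from DRF ZT12 to ZT16 (adjusted p = 0.025).

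All 3 Hsp110 genes, the exchange factors of Hsp70, rose from NRF ZT12 to ZT16. Hsph1 had 161, 44.2, 43.1 and 49.4 TPM at NRF ZT12 and 154, 305, 182 and 181 TPM at NRF ZT16, so its groups overlapped through 1 ZT12 library. Its change was 1.65 ± 0.30 (adjusted p = 2.1e-05). Under DRF it had 61.0, 39.7, 48.5 and 58.6 TPM at ZT0 and 133, 113, 89.9 and 229 TPM at ZT4, with no overlap, and rose over ZT0/24 by 1.49 ± 0.26 (adjusted p = 1e-05). Hspa4 rose by 0.40 ± 0.12 under NRF (adjusted p = 0.0088) and by 0.39 ± 0.10 under DRF (adjusted p = 0.0032) in the same steps. Hspa4l rose by 0.84 ± 0.23 under NRF (adjusted p = 0.004), and its DRF step was 0.47 ± 0.20 (adjusted p = 0.064).

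Both cytosolic Hsp90 genes rose in the same steps with little spread. Hsp90aa1, the inducible form, had 454, 286, 283 and 328 TPM at NRF ZT12 and 854, 1166, 1066 and 1042 TPM at NRF ZT16. Under DRF it had 393, 390, 442 and 449 TPM at ZT0, 854, 778, 636 and 995 TPM at ZT4, 468, 521, 521 and 631 TPM at ZT12 and 898, 786, 623 and 711 TPM at ZT16. It rose by 1.63 ± 0.13 from NRF ZT12 to ZT16 (adjusted p = 3.8e-14) and by 0.97 ± 0.11 from DRF ZT0/24 to ZT4 (adjusted p = 1.4e-09). Hsp90ab1, the constitutive form, had 1389, 1119, 1148 and 1196 TPM at NRF ZT12 and 2366, 2631, 2658 and 2682 TPM at NRF ZT16, with a change of 1.09 ± 0.07 (adjusted p = 5.3e-17). Its DRF step from ZT0/24 to ZT4 was 0.69 ± 0.06 (adjusted p = 9.9e-13).

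All 4 Hsp90 co-chaperones rose at NRF ZT16 and at DRF ZT4. Chordc1, which binds Hsp90 and Sgt1-type partners, had 21.9, 16.8, 17.9 and 21.5 TPM at NRF ZT12 and 55.2, 68.7, 68.3 and 63.8 TPM at NRF ZT16. Under DRF it had 17.9, 18.2, 21.1 and 21.8 TPM at ZT0, 51.2, 44.9, 40.3 and 49.5 TPM at ZT4, 28.3, 31.1, 30.5 and 39.2 TPM at ZT12 and 53.7, 45.3, 41.5 and 45.7 TPM at ZT16. Its libraries at each high lay above all libraries of the time point before. It rose by 1.67 ± 0.11 (adjusted p = 1.2e-16) into NRF ZT16 and by 1.24 ± 0.09 (adjusted p = 1.7e-14) into DRF ZT4. Stip1, which links Hsp70 to Hsp90, rose by 1.32 ± 0.09 and 1.01 ± 0.08 in those steps (adjusted p = 1.8e-15 and 8.2e-14). Ahsa1, the activator of the Hsp90 ATPase, rose by 1.23 ± 0.07 and 0.87 ± 0.06 (adjusted p = 6.1e-19 and 3e-16). Fkbp4, an immunophilin of steroid receptor complexes, rose by 0.97 ± 0.05 and 0.77 ± 0.05 (adjusted p = 1.3e-18 and 2.5e-17).

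The mitochondrial chaperonin moved by less. Hspd1 had 860, 744, 700.5 and 776 TPM at NRF ZT12 and 896, 953, 1006 and 1001 TPM at NRF ZT16, a change of 0.33 ± 0.07 (adjusted p = 0.00058), and its DRF step to ZT4 was 0.19 ± 0.06 (adjusted p = 0.018). Its lid Hspe1 had 256, 252, 238 and 258 TPM at NRF ZT12 and 412, 357, 379 and 368 TPM at NRF ZT16, with no overlap, and rose by 0.59 ± 0.07 (adjusted p = 3.2e-09). Under DRF Hspe1 rose from ZT0/24 to ZT4 by 0.48 ± 0.06 (adjusted p = 1.1e-08). Hspe1 was highest at NRF ZT20, with a mean of 405 ± 15.5 TPM (SD, n = 4), against 379 ± 23.8 TPM at NRF ZT16.

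Of 6 tested genes grouped as small Hsps by symbol, 1 rose and 3 fell at NRF ZT16, and 1 rose and 1 fell at DRF ZT4. Of all genes tested, 12.1% rose and 17.6% fell at NRF ZT16, and 12.1% rose and 23.1% fell at DRF ZT4. Hspb1 (Hsp25), which binds unfolding proteins and actin, had 185, 35.4, 41.8 and 51.4 TPM at NRF ZT12 and 153, 328, 153 and 141 TPM at NRF ZT16, so 1 ZT12 library lay inside the ZT16 range. It rose by 1.55 ± 0.40 there (adjusted p = 0.0022) and by 1.51 ± 0.35 from DRF ZT0/24 to ZT4 (adjusted p = 0.00057). Hspb6 (Hsp20), which is rich in smooth muscle, had 26.4, 19.5, 22.9 and 16.6 TPM at NRF ZT12 and 13.2, 13.4, 12.2 and 11.3 TPM at NRF ZT16, with no overlap, and fell by 0.71 ± 0.12 on the log2 scale (adjusted p = 1.7e-05). It fell by 0.51 ± 0.11 from DRF ZT0/24 to ZT4 (adjusted p = 0.0002). Hspb11 fell by 0.45 ± 0.08 (adjusted p = 3.4e-05) and Hspb7 by 0.31 ± 0.10 (adjusted p = 0.019) at NRF ZT16. The reads of Hspb11 came out fractional, so its levels are uncertain. Hspb8, the partner of Bag3, had 19.3, 13.9, 14.6 and 10.5 TPM at NRF ZT12 and 26.4, 27.4, 13.0 and 14.6 TPM at NRF ZT16, and its step of 0.41 ± 0.17 was not called (adjusted p = 0.054).

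Of the DnaJ genes, all 4 DnajA genes rose at NRF ZT16 and at DRF ZT4, with 5 of 8 DnajB genes rising at NRF ZT16 and 2 of 8 at DRF ZT4. Of 24 DnajC genes, 2 rose and 4 fell at NRF ZT16, and 5 rose and 4 fell at DRF ZT4. Of all genes tested, 12.1% rose and 17.6% fell at NRF ZT16, and 12.1% rose and 23.1% fell at DRF ZT4, so the DnajC counts were near those of all genes. Dnaja1, a main partner of Hspa8, had 108, 101, 88.8 and 102 TPM at NRF ZT12 and 253, 283, 262 and 276 TPM at NRF ZT16, and rose by 1.42 ± 0.10 (adjusted p = 1.1e-15). Under DRF it rose from 86.2, 88.0, 93.5 and 108 TPM at ZT0 to 234, 210.0, 175 and 204 TPM at ZT4, a step over ZT0/24 of 1.15 ± 0.08 (adjusted p = 9.9e-15). Dnaja4 rose by 1.05 ± 0.08 and 0.59 ± 0.07 in the same steps (adjusted p = 5.7e-15 and 1.1e-09), and Dnajb1 (Hsp40), which feeds clients to Hsp70, by 1.04 ± 0.12 and 0.54 ± 0.11 (adjusted p = 5.2e-09 and 7.5e-05). Dnajb4 rose by 0.63 ± 0.15 at NRF ZT16 (adjusted p = 0.0011), and its DRF step was 0.06 ± 0.13 (adjusted p = 0.76). Dnajc28 went the other way, with falls of 0.27 ± 0.10 (adjusted p = 0.031) and 0.54 ± 0.09 (adjusted p = 2.7e-06).

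Hsf1, the transcription factor of the heat shock response, had 13.4, 14.3, 14.9 and 14.03 TPM at NRF ZT12 and 23.2, 22.2, 23.4 and 21.9 TPM at NRF ZT16, with no overlap. Its changes were 0.64 ± 0.07 at NRF ZT16 (adjusted p = 1.5e-10) and 0.42 ± 0.06 at DRF ZT4 (adjusted p = 1e-07). Hsf2 changed by 0.16 ± 0.11 and -0.02 ± 0.09, and neither was called (adjusted p = 0.28 and 0.88). Bag3, a co-chaperone of selective autophagy, rose by 0.80 ± 0.13 and 0.33 ± 0.11 (adjusted p = 3.5e-06 and 0.017).

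In all, 31 of 72 members rose from NRF ZT12 to ZT16 and 7 fell, against 12.1% and 17.6% of all genes tested. From DRF ZT0/24 to ZT4, 29 rose and 5 fell, against 12.1% and 23.1% of all genes. These steps share no libraries. In the NRF step, ZT12 replicate 1 and ZT16 replicates 1 and 2 had 403, 270 and 120 TPM of Adipoq. The part of adipose tissue in this step was not tested. The lists of members that rose shared 24 genes, which were 77.4% of the NRF list and 82.8% of the DRF list, and over all genes the shared share was 48.9% and 49.1%. Members that fell in both were Hspb6, Dnajc28 and Dnajc30. The median change over all 72 tested members was 0.14 at NRF ZT16 and 0.12 at DRF ZT4, and over all genes it was -0.01 and -0.05.

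**Figure D2:**
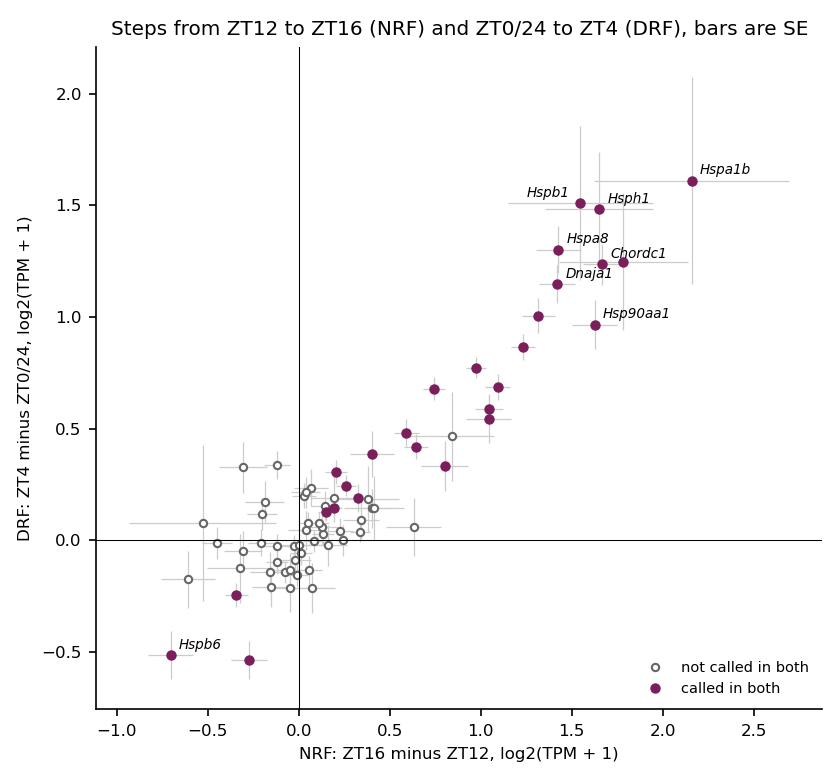
Each point is 1 tested member, with its change in log2(TPM + 1) from ZT12 to ZT16 under NRF on the x axis and from ZT0/24 to ZT4 under DRF on the y axis; bars are SE and filled points were called in both. Hspa1b lies farthest out at 2.16 and 1.61, and Hspb6 lies at -0.71 and -0.51.

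The second DRF high followed lights off. From DRF ZT12 to ZT16, 8 members rose and 10 fell, against 5.24% and 12.6% of all genes. Those that rose most were Hspa8 at 0.61 ± 0.12 (adjusted p = 0.00028), Chordc1 at 0.52 ± 0.11 (adjusted p = 0.00038), Hsp90aa1 at 0.49 ± 0.13 (adjusted p = 0.004), Ahsa1 at 0.47 ± 0.07 (adjusted p = 9.4e-07) and Hsp90ab1 at 0.44 ± 0.07 (adjusted p = 5.8e-06). Of the 8, 7 also rose at NRF ZT16 and at DRF ZT4, and besides these 5 they were Dnaja4 and Stip1. Over all genes, 638 rose from DRF ZT12 to ZT16, and 67 of them also rose at NRF ZT16 and at DRF ZT4. Hspa1b and Hspa1a were not called here, at -0.51 ± 0.54 (adjusted p = 0.60) and -0.53 ± 0.35 (adjusted p = 0.35). The Hsp90aa1 step was 0.34 without replicate 1 (adjusted p = 0.072) and 0.46 without replicate 2 (adjusted p = 0.060). Between the highs the level dropped: from DRF ZT4 to ZT12, 14 members fell and 1 rose, against 4.11% and 4.99% of all genes. Hspa8 fell by 0.78 ± 0.12 on the log2 scale (adjusted p = 2.5e-05) and Hsp90aa1 by 0.60 ± 0.13 (adjusted p = 0.0011). Dnaja1 fell by 0.56 ± 0.10 (adjusted p = 9.8e-05), Chordc1 by 0.52 ± 0.11 (adjusted p = 0.00093) and Hsp90ab1 by 0.50 ± 0.07 (adjusted p = 2.2e-06). Dnajc18 rose by 0.18 ± 0.06 (adjusted p = 0.044). This rise was not called on the deposited values (0.18, adjusted p = 0.11) or by limma voom (0.15, adjusted p = 0.061). It was also not called with another scaling of the libraries, with no minimum level or without any one replicate number.

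From NRF ZT0/24 to ZT4, after lights on, members of these families went down. Members that fell numbered 22 and 1 rose, against 9.43% and 9.21% of all genes. Chordc1 fell by 0.98 ± 0.09 (adjusted p = 8.5e-11), Hsph1 by 0.73 ± 0.26 (adjusted p = 0.039), Dnaja1 by 0.64 ± 0.08 (adjusted p = 2.3e-07), Stip1 by 0.49 ± 0.08 (adjusted p = 9.5e-06) and Hsp90aa1 by 0.49 ± 0.11 (adjusted p = 0.00083). Hspb6 was the 1 that rose, by 0.46 ± 0.11 (adjusted p = 0.0016), and by 0.43 without replicate 3 (adjusted p = 0.054). The Hsph1 change was not called without replicate 1 (-0.57, adjusted p = 0.10), 2 (-0.63, adjusted p = 0.19) or 3 (-0.90, adjusted p = 0.074). Without the NRF ZT24 library whose number is in no sample title, the Hsph1 change was -0.69 (adjusted p = 0.064).

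**Figure D3:**
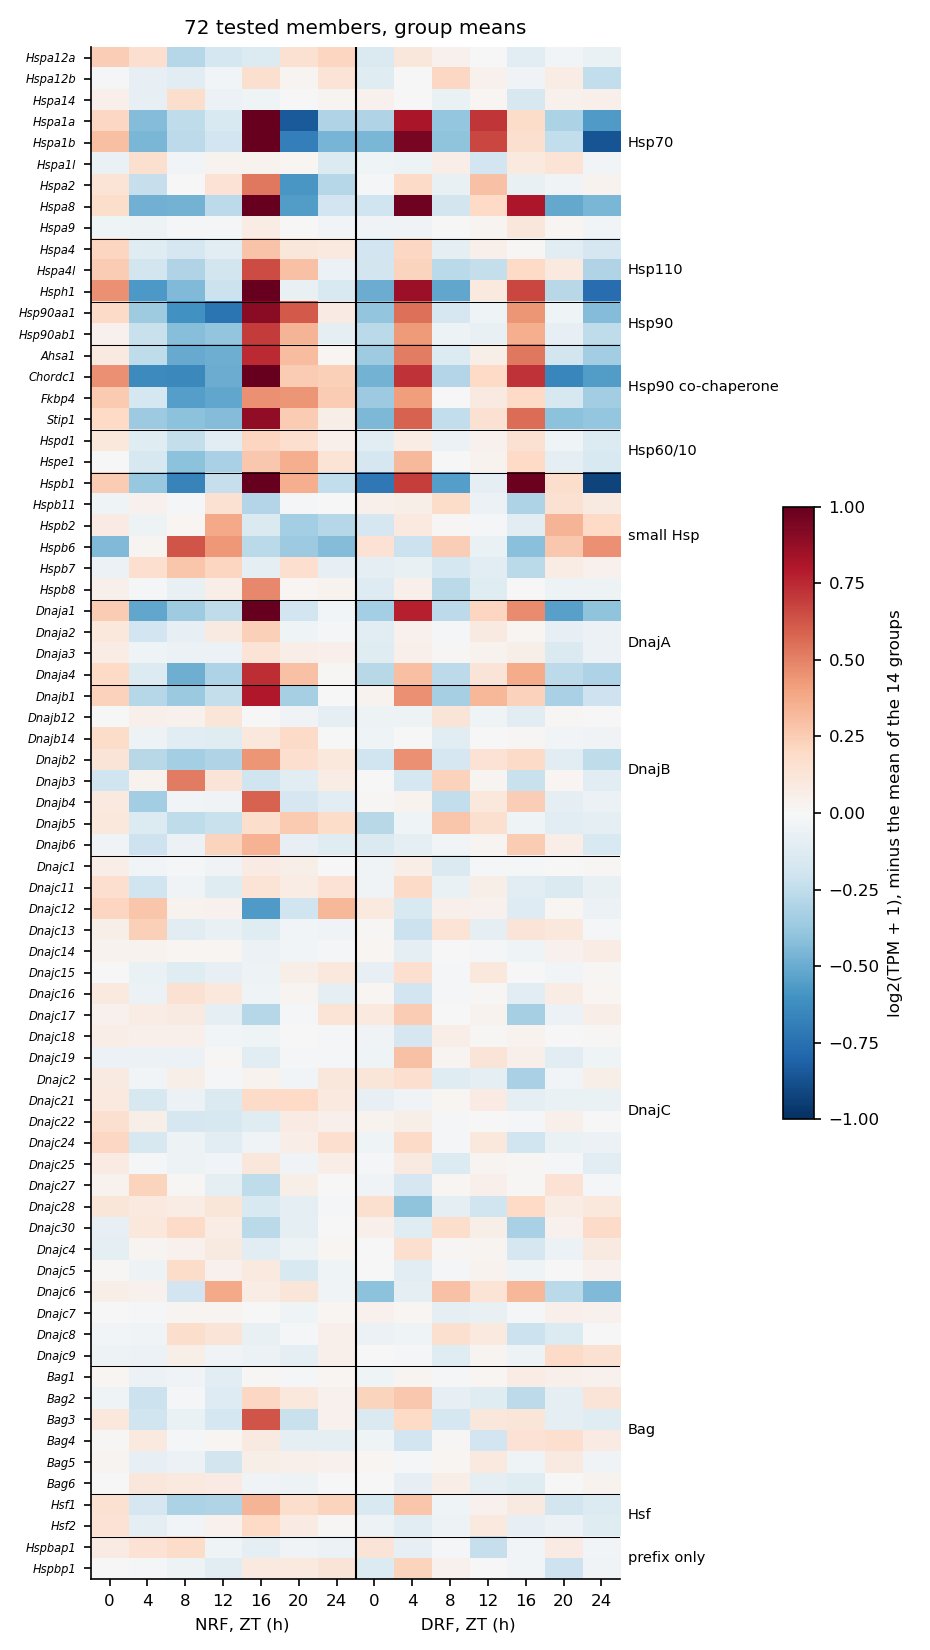
Group means of the tested members by zeitgeber time under NRF and DRF, each member centred on its own mean in log2(TPM + 1), with colours clipped at ±1. Under NRF 33 members are highest at ZT16, and under DRF 22 members have local highs at both ZT4 and ZT16.

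Compared at the same clock time, DRF exceeded NRF most at ZT4. There 29 members were higher under DRF and 8 lower, against 9.29% and 21.8% of all genes. Beside Hspa8, Hsph1 was higher by 1.43 ± 0.30 (adjusted p = 0.00021), Hspa1b by 1.41 ± 0.54 (adjusted p = 0.041), Chordc1 by 1.36 ± 0.11 (adjusted p = 3.5e-13) and Dnaja1 by 1.30 ± 0.10 (adjusted p = 8.5e-14). Dnajc28 differed by -0.50 ± 0.10 (adjusted p = 0.00013). The Hspa1b difference was not called when any one replicate number was left out, with values of 1.01 to 1.86 and adjusted p of 0.051 to 0.19. For Hsph1, NRF ZT4 libraries had 37.9, 36.9, 57.2 and 69.1 TPM and DRF ZT4 libraries 133, 113, 89.9 and 229 TPM, with no overlap. All 4 co-chaperones, both Hsp90 and both Hsp60/10 genes were called higher, with 3 of 4 DnajA and 3 of 9 Hsp70 genes.

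At ZT16 the sign turned, with 20 members lower under DRF and 1 higher, against 6.45% and 2.39% of all genes. Hspa1b differed by -1.81 ± 0.54 (adjusted p = 0.026), Hspa1a by -1.44 ± 0.35 (adjusted p = 0.0067), Dnaja1 by -0.70 ± 0.10 (adjusted p = 7.5e-06), Hspa2 by -0.60 ± 0.17 (adjusted p = 0.02) and Dnajb1 by -0.57 ± 0.12 (adjusted p = 0.002). Dnajc28 was higher by 0.35 ± 0.10 (adjusted p = 0.017). Its difference was not called by limma without replicate 1 (0.34, adjusted p = 0.051), 3 (0.34, adjusted p = 0.16) or 4 (0.36, adjusted p = 0.081). The summed reads of Hspa1a, Hspa1b and Hspa1l were 101, 67.2, 75.6 and 74.8 per M reads at DRF ZT16, below all 4 libraries of NRF ZT16. Of those NRF libraries, replicates 1 and 2 also had high adipose markers. Without the 5 libraries above 100 TPM of Adipoq, the ZT16 differences were -1.38 for Hspa1b (adjusted p = 0.13), -1.09 for Hspa1a (adjusted p = 0.066) and -0.45 for Dnajb1 (adjusted p = 0.076). The Hspa1b difference was also not called without replicate 2 (-1.41, adjusted p = 0.22), 3 (-1.97, adjusted p = 0.11) or 4 (-1.87, adjusted p = 0.063), Hspa1a without replicate 2 (-1.17, adjusted p = 0.12), or Hspa2 without replicate 2 (-0.48, adjusted p = 0.21) or 3 (-0.48, adjusted p = 0.21). The part of adipose tissue in these differences was not tested.

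Around lights on and late in the dark phase DRF was lower. At ZT0, 22 members were lower and 2 higher, against 11.8% and 8.36% of all genes. The largest differences were Hsph1 at -0.95 ± 0.30 (adjusted p = 0.017), Chordc1 at -0.93 ± 0.11 (adjusted p = 1.2e-08), Stip1 at -0.65 ± 0.09 (adjusted p = 8.3e-07), Fkbp4 at -0.63 ± 0.05 (adjusted p = 1.1e-11) and Dnaja1 at -0.60 ± 0.10 (adjusted p = 1.2e-05), with Hspb6 higher by 0.59 ± 0.12 (adjusted p = 0.00052). The ZT0 difference of Hsph1 was -0.90 without replicate 2 (adjusted p = 0.097) and -0.90 without replicate 4 (adjusted p = 0.051). At ZT20, 19 were lower and 3 higher, against 8.40% and 10.6% of all genes. Chordc1 differed by -0.91 ± 0.11 (adjusted p = 2.2e-08), Stip1 by -0.67 ± 0.09 (adjusted p = 6e-07), Hsp90aa1 by -0.66 ± 0.13 (adjusted p = 0.00013) and Fkbp4 by -0.61 ± 0.05 (adjusted p = 2.4e-11), and Hspb6 by 0.63 ± 0.12 (adjusted p = 0.00022). At ZT24, 15 were lower and 2 higher, against 8.54% and 7.49% of all genes, with Hspb6 at 0.90 ± 0.12 (adjusted p = 1.3e-06), Chordc1 at -0.80 ± 0.11 (adjusted p = 5.8e-07), Fkbp4 at -0.60 ± 0.05 (adjusted p = 7.5e-11), Hsp90aa1 at -0.52 ± 0.13 (adjusted p = 0.0025) and Stip1 at -0.44 ± 0.09 (adjusted p = 0.00045).

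In the later light phase DRF was higher again. At ZT8, 12 members were higher and 4 lower, against 8.06% and 9.00% of all genes. Fkbp4 was higher by 0.56 ± 0.05 (adjusted p = 2.1e-10), Dnajb5 by 0.53 ± 0.10 (adjusted p = 0.00013), Dnajc6, the uncoating partner of Hspa8 on clathrin vesicles, by 0.49 ± 0.13 (adjusted p = 0.0076) and Hsp90aa1 by 0.44 ± 0.13 (adjusted p = 0.012), while Hspb7 differed by -0.45 ± 0.10 (adjusted p = 0.0015). The Dnajc6 difference was 0.29 without replicate 1 (adjusted p = 0.24), 0.45 without replicate 3 (adjusted p = 0.075) and 0.35 without the libraries high in Hspb1 (adjusted p = 0.071), and that of Hspb7 was -0.30 without replicate 4 (adjusted p = 0.055). The ZT8 difference of Hsp90aa1 was 0.41 without replicate 2 (adjusted p = 0.094) and 0.38 without replicate 3 (adjusted p = 0.081). Without replicate 4 it was 0.43 (adjusted p = 0.062). At ZT12, 18 were higher and 4 lower, against 8.0% and 13.3% of all genes. Chordc1 was higher by 0.70 ± 0.11 (adjusted p = 4.2e-06), Hsp90aa1 by 0.68 ± 0.13 (adjusted p = 7.9e-05), Fkbp4 by 0.61 ± 0.05 (adjusted p = 1.2e-10), Stip1 by 0.59 ± 0.09 (adjusted p = 5.7e-06) and Dnajb1 by 0.57 ± 0.12 (adjusted p = 0.00052), and Hspb6 differed by -0.50 ± 0.12 (adjusted p = 0.0026).

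**Figure D4:**
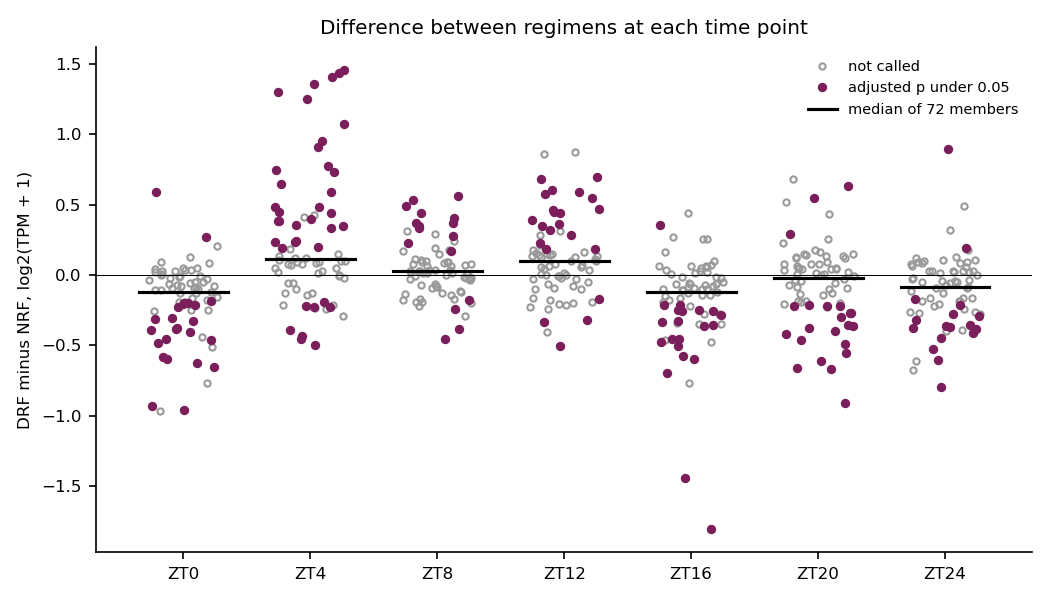
Difference DRF minus NRF in log2(TPM + 1) at each zeitgeber time, with 1 point for each of the 72 tested members, filled where the adjusted p was under 0.05, and a bar at the median. The points reach from -1.81 at ZT16 (Hspa1b) to 1.46 at ZT4 (Hspa8).

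Averaged over clock time, few members differed between regimens. The mean was higher under DRF for 5 members and lower for 3, against 2.85% and 9.74% of all genes. Hspa8 was higher by 0.26 ± 0.05 (adjusted p = 0.00015), Dnajc19 by 0.10 ± 0.03 (adjusted p = 0.0097), Ahsa1 by 0.10 ± 0.03 (adjusted p = 0.0089) and Hspe1 by 0.08 ± 0.03 (adjusted p = 0.034), while Hspb7 differed by -0.21 ± 0.04 (adjusted p = 0.0003). By limma, Dnajc19 was not called without replicate 1, 2 or 3 (adjusted p = 0.10, 0.061 and 0.056). Ahsa1 was not called without replicate 1 or 3 (adjusted p = 0.12 and 0.051). Hspe1 was not called without replicate 1, 2 or 3 (adjusted p = 0.17, 0.065 and 0.18) or on the deposited values (adjusted p = 0.059). Between ZT0 and ZT24, the same clock time a day apart, limma called 0 members under DRF (0% of all genes) and 0 under NRF (0.616% of all genes), with 3 and 10 members at an unadjusted p under 0.05, and limma voom on the reads called 0 in both.

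As 24-h rhythms, 43 of 72 members were called under NRF, against 53.0% of all genes, and 20 under DRF, against 36.6%. The NRF rhythms peaked in the dark phase: 29 of the 43 (67.4%) peaked from ZT16 to ZT22, against 28.9% of the rhythmic genes of the whole table. The largest NRF amplitudes were Chordc1 at 0.80 ± 0.10 (peak ZT18.9, adjusted p = 2e-06), Hspb1 at 0.79 ± 0.19 (peak ZT17.8, adjusted p = 0.004), Hsp90aa1 at 0.76 ± 0.09 (peak ZT19.3, adjusted p = 3.6e-07), Hsph1 at 0.69 ± 0.18 (peak ZT17.5, adjusted p = 0.0063) and Stip1 at 0.56 ± 0.08 (peak ZT18.7, adjusted p = 4.4e-06). Under DRF the largest were Dnajc6 at 0.37 ± 0.05 (peak ZT11.6, adjusted p = 1.7e-05), Bag2 at 0.24 ± 0.03 (peak ZT2.6, adjusted p = 1.3e-05), Dnajc28 at 0.23 ± 0.05 (peak ZT19.2, adjusted p = 0.0025), Fkbp4 at 0.22 ± 0.06 (peak ZT10.0, adjusted p = 0.012) and Dnajb5 at 0.22 ± 0.04 (peak ZT9.8, adjusted p = 0.00057). Of the 72, 33 were called under NRF only, 10 under DRF only, 10 under both and 19 under neither. Of all 12173 genes tested, 6451 were called under NRF, 4457 under DRF and 3016 under both. The matching counts of the 72 members were 43, 20 and 10. The difference itself was called for 37 members, against 46.5% of all genes, with the largest vector differences between the fitted cosines at Chordc1 (1.03, adjusted p = 1.7e-05), Hsp90aa1 (0.83, adjusted p = 1e-05), Fkbp4 (0.77, adjusted p = 5.2e-11), Dnaja1 (0.72, adjusted p = 0.0022) and Stip1 (0.71, adjusted p = 0.00011).

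Among the 10 members rhythmic under both regimens, 7 were shifted by at least 8 h, 2 by at most 4 h and 1 by a value between. Of the 3016 genes of the whole table called under both, 34.3% were shifted by at least 8 h and 33.3% by at most 4 h. The shifted genes were Bag2, Dnaja3, Dnajb5, Dnajc11, Dnajc21, Fkbp4 and Hspbp1, for example Fkbp4 by -10.2 ± 1.1 h and Dnajb5 by -10.4 ± 0.9 h (DRF minus NRF, SE). Dnajb6 kept its phase within 0.45 ± 0.98 h and Dnajc17 within 0.66 ± 1.2 h. The DRF rhythm of Fkbp4 was not called without ZT24 (amplitude 0.18, adjusted p = 0.097) or without replicate 3 (0.22, adjusted p = 0.082). Its highest DRF group mean was at ZT4 (476 TPM), away from its fitted peak. The median absolute shift of the 10 members was 9.74 h, against 6.10 h over those 3016 genes.

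A 12-h component, added to the 24-h terms, was called under DRF for 29 members, against 31.1% of all genes, and under NRF for 5, against 0.813%. The DRF components peaked at 2 to 5 h (and 12 h later) in 23 of the 29 (79.3%), against 21.9% of the genes called, and their median amplitude was 0.27, against 0.16. The largest were Hspb1 at 0.81 ± 0.13 (adjusted p = 0.00014), Hspa8 at 0.75 ± 0.05 (adjusted p = 6.7e-11), Hsph1 at 0.75 ± 0.11 (adjusted p = 3.2e-05), Chordc1 at 0.72 ± 0.04 (adjusted p = 6.7e-11) and Dnaja1 at 0.61 ± 0.05 (adjusted p = 1.5e-08). The 5 under NRF were Hsp90aa1 at 0.30 ± 0.06 (adjusted p = 0.039), Ahsa1 at 0.26 ± 0.04 (adjusted p = 0.0038), Dnaja4 at 0.26 ± 0.04 (adjusted p = 0.0024), Hsp90ab1 at 0.25 ± 0.03 (adjusted p = 0.0012) and Fkbp4 at 0.15 ± 0.03 (adjusted p = 0.016). The difference in the 12-h component was called for 5 members, against 6.28% of all genes: Chordc1 (0.46, adjusted p = 0.014), Stip1 (0.33, adjusted p = 0.019), Ahsa1 (0.20, adjusted p = 0.035), Dnajc19 (0.16, adjusted p = 0.043) and Dnajc30 (0.14, adjusted p = 0.033). Sampling every 4 h gives a 12-h cycle few points, and without ZT4 the counts were 15 under DRF, 21 under NRF and 16 for the difference. Without ZT4 the DRF amplitudes of Hspb1 and Hsph1 were 0.41 (adjusted p = 0.19) and 0.35 (adjusted p = 0.15). Without ZT16 none of the 5 NRF components was called, with amplitudes of 0.05 for Fkbp4, 0.07 for Ahsa1, 0.09 for Dnaja4, 0.12 for Hsp90ab1 and 0.17 for Hsp90aa1. Without any one replicate number 0 or 1 difference was called.

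Within groups Hspb1, Hspa1b, Hsph1 and Hspa4l varied together with Cryab. Cryab, a small heat shock protein gene outside the rule that is strong in the medulla, and Aqp2, the collecting duct water channel, were the highest of their groups in the libraries that stood out in Hspb1. At DRF ZT4, replicate 4 had 250.4 TPM of Hspb1 with 1503 TPM of Cryab and 1490 TPM of Aqp2, while the other 3 had 74.6 to 115 TPM of Hspb1 and 242 to 341 TPM of Cryab. Over the 56 libraries, deviations from the group mean correlated with those of Cryab by r = 0.916 and rho = 0.887 for Hspb1, r = 0.842 and rho = 0.792 for Hspa1b, r = 0.797 and rho = 0.725 for Hsph1 and r = 0.715 and rho = 0.633 for Hspa4l. For Hspa8 the values were r = -0.378 and rho = -0.474, and for Hsp90ab1 r = 0.348 and rho = 0.328. By permutation tests with 100000 resamples, adjusted over these 6 relations, p was 3e-05 for both measures in Hspb1 and Hspa1b, 4e-05 and 6e-05 in Hsph1, 0.00015 and 0.00021 in Hspa4l, 0.0032 and 0.0013 in Hspa8 and 0.016 and 0.024 in Hsp90ab1. The smallest p the resamples could give was 1e-05 before adjustment. Cryab and the 6 members were chosen with earlier results of these data known, so these p values do not allow for that choice. Other members were not set against Cryab. Without the 2 libraries farthest in Cryab, DRF ZT4 replicate 4 and NRF ZT8 replicate 1, r was 0.897, 0.815, 0.758, 0.658, -0.346 and 0.297 in the same order. Within the regimens r was 0.931 and 0.894 for Hspb1, 0.867 and 0.810 for Hspa1b, and -0.295 and -0.531 for Hspa8 (NRF and DRF, 28 libraries each).

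**Figure D5:**
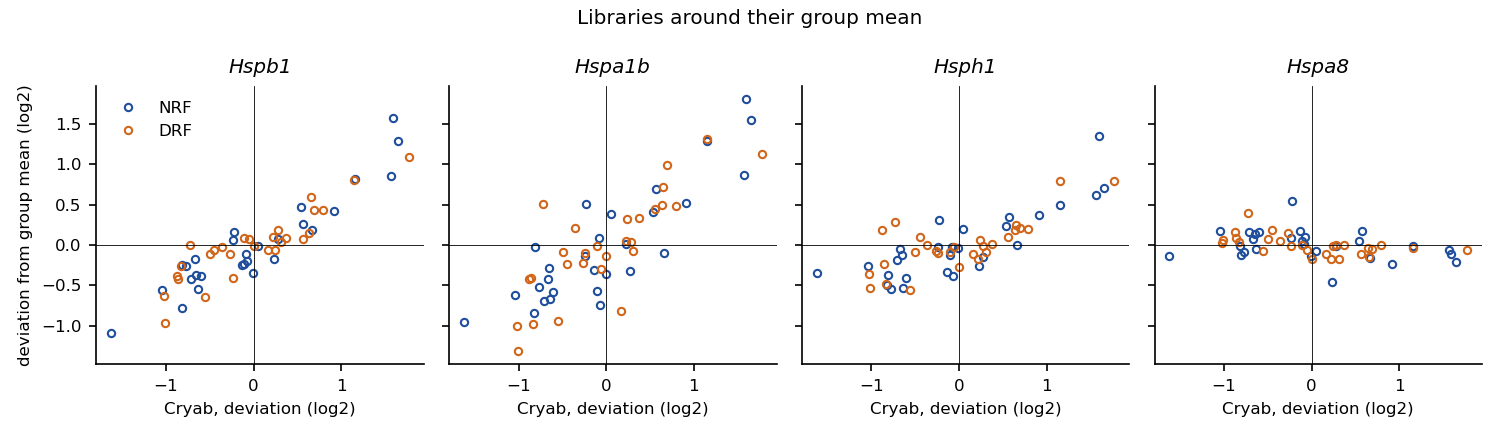
Deviation of each library from its group mean, in log2, for Cryab on the x axis and for Hspb1, Hspa1b, Hsph1 and Hspa8 on the y axis, under NRF (blue) and DRF (orange). Points climb with Cryab in the first 3 panels (r = 0.916, 0.842 and 0.797) and fall with it for Hspa8 (r = -0.378).

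The 4 libraries highest in Hspb1 within their groups by at least 1.5 times the next were DRF ZT4 replicate 4, NRF ZT8 replicate 1, NRF ZT12 replicate 1 and NRF ZT16 replicate 2. Without them 33 members differed between regimens at ZT4 (37 with them), 37 changed from DRF ZT0/24 to ZT4 (34 with them) and 37 from NRF ZT12 to ZT16 (38 with them). In that setting the ZT4 difference of Hspa1b was 1.03 (adjusted p = 0.079) and that of Hspa2 at ZT16 was -0.56 (adjusted p = 0.056). The part of cell makeup in these values was not tested.

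Genes of the folding machinery outside the list were counted against the same shares of all genes, 12.1% rising and 17.6% falling at NRF ZT16 and 12.1% rising and 23.1% falling at DRF ZT4. Of 18 tested genes among further Hsp90 and Hsp70 co-chaperones and the CCT chaperonin, 10 rose and 0 fell at NRF ZT16, and 9 rose and 1 fell at DRF ZT4. Cacybp, a Siah-interacting co-chaperone, rose by 1.12 ± 0.10 and 0.85 ± 0.09, and Ptges3 (p23), which stabilises closed Hsp90, by 0.70 ± 0.06 and 0.53 ± 0.05 (adjusted p = 2e-12, 8.2e-11, 9.9e-13 and 5e-11). Of 12 tested genes of mitochondrial folding and quality control outside the rule, 0 rose and 4 fell at NRF ZT16, and 0 rose and 7 fell at DRF ZT4. Hscb, an iron-sulphur co-chaperone of Hspa9, fell by 0.75 ± 0.08 and 0.44 ± 0.07 on the log2 scale (adjusted p = 1.1e-10 and 6.4e-07). Of 15 tested heat-responsive genes outside the chaperone families, 7 rose and 3 fell at NRF ZT16 and 3 rose and 3 fell at DRF ZT4, the latter near the shares of all genes. Serpinh1 (Hsp47), the collagen chaperone of the ER, rose by 1.22 ± 0.10 and 1.06 ± 0.08 (adjusted p = 1.1e-13 and 1e-13). Of the 7 ER chaperones left out, 6 rose at NRF ZT16 and 5 at DRF ZT4, led by Hspa5 (BiP) at 2.17 ± 0.15 and 1.67 ± 0.13. Hspa5 had 309, 275, 242 and 315 TPM at NRF ZT12 and 1045, 1299.7, 1373 and 1440 TPM at NRF ZT16.

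Of the 26 members that rose at NRF ZT16 and had a promoter entry, 10 held the looser element, and of the 32 other tested members with an entry 4 did. For DRF ZT4 the counts were 9 of 24 and 5 of 34. The looser form stood in 6.86% of all genes with an entry, and its share among all genes that rose was not counted. Hspa1a and Hspa1b, with the same bases, and Hspd1 and Hspe1, with a shared stretch, count separately among the risen members. These are counts of letters in the window shown above and say nothing of binding.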

How the data were processed

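Poly(A) RNA of whole kidney had been sequenced as paired 100-base reads on a BGISEQ-500, and the submitters' processing notes name HISAT2, Bowtie2, RSEM and the builds mm10 and GRCm38.p6, with no roles given. The authors deposited 1 table with a value for each gene and mouse. These deposited values, called TPM by the authors, were treated as a score, because they followed a logarithm of reads divided by gene length and were then scaled to a fixed total (sums of 999145 to 999753 a library). The planned tests had assumed plain TPM. Reads were recovered with GENCODE M21 exon lengths: 88.0% of the 17027 genes gave whole reads, with 99.6% of their values above 0 within 0.1 of a whole number. TPM was then recomputed, scaled over those genes. Of the 75 members 65 had whole reads, and the other 10 (Hspa1a, Hspa1b, Hspa1l, Hspb2, Hspb11, Dnajb6, Dnajb14, Dnajc1, Dnajc14 and Dnajc19) are uncertain. Symbols came from RefSeq by Entrez identifier (16929 of 17027 matched).

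Genes with a mean of at least 1 TPM were tested as log2(TPM + 1) with limma 3.58.1 in R 4.3.3, all 56 libraries in 1 fit for group contrasts and cosine terms of 24 h and 12 h for rhythms, with ZT0/24 as the mean of both times, Benjamini-Hochberg adjustment and a threshold of 0.05. Python 3.11.15, numpy 2.4.6, pandas 2.3.3 and matplotlib 3.10.9 were used for the rest. The steps were tested on simulated data. Genes named were core members of each role, up to 5 called members with the largest change in each test, the largest against the prevailing direction, and untested members. Members and lists were chosen with earlier results of these data known. Alternatives were other scalings, pseudocounts (0.1) and filters (no minimum, or 5 TPM), the deposited values, limma voom on recovered reads, whole-read genes only, a replicate block, and leaving out replicates or times. Leaving out the 4 libraries high in Hspb1, the 5 high in Adipoq or the NRF ZT24 library with no number was chosen after seeing the data. Samples were grouped by their labels as separate mice. In NRF ZT24, 1 column bears the number 5, which is in no sample title; it was placed in that group by its name alone and is the library with no number. Same-numbered mice of different groups did not deviate together (139 of 351 pairs had a correlation over 0.1, mean 0.0104), so numbers were not used as pairs. Counts of reads limit the precision of low genes.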

Additional observations from a re-analysis of the deposited data

Results flagged for a closer look

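Among 17 core members examined library by library, 1 library stood apart from the other 3 of its group, by Dixon's ratio above its critical value for 4, in 22 of 238 member and group pairs. Over all tested members it was 63 of 1008 pairs (6.25%), and chance gives about 1 in 20. NRF ZT12 replicate 1 stood high in Hspb1 (185 TPM), Hspa1b (166 TPM), Hsph1 (161 TPM), Hspa1a (67.0 TPM) and Hspa4l (43.1 TPM). NRF ZT8 replicate 1 stood high in Hsp90ab1 (1220.3 TPM), Hsp90aa1 (419.6 TPM), Hspa1b (132 TPM), Hspb1 (111 TPM), Hspa1a (49.1 TPM) and Hspa4l (24.7 TPM). DRF ZT4 replicate 4 stood high in Hspa4l (40.05 TPM) and NRF ZT16 replicate 2 in Hspb1 (328 TPM). These 4 libraries were also the highest of their groups in Cryab, at 949, 1068, 1503 and 1382 TPM in the order named, and the part of the tissue sampled in their levels was not tested.

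Other high libraries were DRF ZT12 replicate 4 in Hspa8 (3611 TPM), DRF ZT24 replicate 4 in Hspd1 (883 TPM), DRF ZT16 replicate 1 in Hspa1a (51.1 TPM) and NRF ZT20 replicate 2 in Dnajb1 (57.1 TPM). Low libraries were NRF ZT16 replicate 1 in Hsp90ab1 (2366 TPM), DRF ZT4 replicate 3 in Hspd1 (808 TPM), NRF ZT4 replicate 1 in Stip1 (141 TPM), DRF ZT8 replicate 3 in Dnaja1 (93.1 TPM) and NRF ZT8 replicate 4 in Chordc1 (15.3 TPM).

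By the interaction test of limma, the 24-h rhythm differed between the regimens for 37 of 72 members (51.4%, against 46.5% of all genes) and the 12-h component for 5 (6.94%, against 6.28%), both close to the share of all genes.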

How the results depend on the processing

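No difference between groups called both in the main run and in an alternative run changed sign. Differences of the members named for a test kept their sign in every alternative, called or not. Other members that lost their call were not checked for sign. Rhythm results were not checked in this way, because an amplitude has no sign. The count of 12-h components under NRF (5) was 3 on the deposited values, 3 with a replicate block, 3 without ZT24, 21 without ZT4 and 3 without the libraries high in Adipoq. The count of 12-h differences between regimens (5) was 3 on the deposited values, 2 without ZT24, 16 without ZT4 and 28 without ZT16. Without ZT4, 24-h rhythms under DRF numbered 39 (20 with it) and 12-h components under DRF 15 (29 with it). Leaving out each replicate number in turn gave 0 to 5 for 12-h components under NRF, 0 to 1 for their differences, 11 to 24 for 24-h rhythms under DRF, 2 to 9 for the mean over clock time (8), 9 to 12 at ZT8 (16), 9 to 28 at ZT16 (21) and 9 to 17 from DRF ZT12 to ZT16 (18), with fewer mice in each fit. It gave 28 to 44 from NRF ZT12 to ZT16 (38) and 25 to 34 from DRF ZT0/24 to ZT4 (34). The replicate block changed no other count by over 1.5 times. Of 103 values of named members, 97 to 103 kept their call under the other scalings, pseudocount and filters, 101 under the replicate block, 99 without the libraries high in Hspb1, 97 without those high in Adipoq and 79 to 90 without a replicate number. Of 30 rhythm values, 24 kept their call without ZT24, 24 without ZT4 and 22 without ZT16, where the NRF amplitudes of Hspb1 (0.49, adjusted p = 0.098) and Hsph1 (0.31, adjusted p = 0.20) by limma were lost. The causes were not tested. Read depth limits low members such as Hspb9.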
